A study of Mus musculus with 6 samples.

Results

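The genes described here encode proteins of the focal adhesion, the plaque that links integrins in the cell membrane to the actin cytoskeleton: the kinase FAK (Ptk2), the docking protein p130Cas (Bcar1), paxillin (Pxn), the kinase Src, the adaptor Crk, vinculin (Vcl), the talins (Tln1 and Tln2), zyxin (Zyx) and filamin A (Flna). Members were all probe sets that the platform annotation assigned to exactly 1 of these 10 genes. They came to 23 probe sets for 9 genes, out of 45037 probe sets and 18193 named genes. No probe set used here was assigned to Ptk2 alone, so FAK was not analysed here.

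Transcripts were measured in C2C12 cells, a mouse skeletal muscle precursor (myoblast) line, holding an integrin alpha7 construct under tetracycline control. The cells were kept undifferentiated for 36 h in DMEM with 20% serum and chick embryo extract, with 1 µg/ml tetracycline (induced, 3 arrays) or without tetracycline (noninduced, 3 arrays). Both groups carried the construct. The labels do not say whether the line was a single clone, which promoter or which species' integrin alpha7 it carried, and no cells without the construct were treated with tetracycline, so effects of the drug and of the construct cannot be told apart. Each group was described as triplicate biological samples, and 1 Affymetrix Mouse430_2 array was hybridised per sample.

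Integrins have no enzymatic activity of their own. Talin binds the cytoplasmic tail of the integrin beta subunit and activates it, and vinculin strengthens the talin to actin link once talin is stretched. FAK and Src form a kinase pair at the adhesion that phosphorylates paxillin and p130Cas. Phosphorylated p130Cas recruits Crk, which leads to activation of the small GTPases Rac1 and Rap1. Zyxin gathers where actin fibres are under tension, and filamin crosslinks actin filaments and binds integrin beta tails. In muscle, integrin alpha7 pairs with the beta1 subunit as a laminin receptor, and adhesions of this kind are the precursors of myotendinous and costameric attachments.

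Itga7, the gene the construct carries, had no higher signal where the label said induced. Its single probe set gave 674.7, 727.2 and 676.3 on the arrays labelled induced and 811.1, 778.3 and 785.8 on the noninduced arrays (exact two-sided permutation p = 0.1, the smallest that 3 against 3 arrays allow). Whether its probes detect the construct is not stated, so the group is called the arrays labelled induced throughout. All 5 myoblast markers lay above the signal filter, with summed signals of 5530 to 5813 on the arrays labelled induced and 5855 to 5973 on the noninduced arrays, without overlap. Their log2 differences went both ways: Myod1 was at -0.17, Cdh15 at -0.12 and Chrna1, the brightest, at -0.12, while Myf5 was at 0.12 and Des at 0.07. The other marker lists were far dimmer, and their sums overlapped between the groups, reaching at most 304.2 on the arrays labelled induced and 343.6 on the noninduced arrays. Pdgfra, the 1 fibroblast marker of 5 above the filter, did not overlap, at 101.4, 75.05 and 65.42 on the arrays labelled induced and 60.56, 37.28 and 50.15 on the noninduced arrays (log2 difference 0.56, limma adjusted p = 0.195). Below the filter and untested, Thy1 and Col1a1 were at 0.12 and 0.22, and Dcn and Lum at -0.49 and -0.63. Among differentiated muscle markers, Acta1 was at 0.25 without overlap (limma adjusted p = 0.31) and Myog at -0.25. The others of that list, below the filter, were negative. The control transcripts bioB, bioC, bioD and cre, added to every sample, were all higher where the label said induced, without overlap. Their log2 differences were 0.38, 0.21, 0.25 and 0.13. The median signal of an array was 24.9, 22.89 and 22.94 on the arrays labelled induced and 24.99, 27.73 and 25.9 on the noninduced arrays. The 3′ to 5′ ratio of Actb was 1.126 ± 0.0146 on the arrays labelled induced and 1.103 ± 0.00447 on the noninduced arrays (SD, n = 3 each), and that of Gapdh went the other way, at 0.773 ± 0.011 on the arrays labelled induced and 0.793 ± 0.00772 on the noninduced arrays. Judged by gaps in hybridisation times, induced replicate 1 shared a fluidics run with the 3 noninduced arrays, and induced replicates 2 and 3 were in a second run. The part of these measures in the values below was not tested.

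None of the adhesion plaque genes passed the test. Values are linear signals scaled per array, differences are on the scale of log2(signal + 16), and a probe set was tested when its mean signal exceeded the median of all probe sets, 23.44. This kept 20 of the 23 member probe sets, with at least 1 for each of the 9 genes. In limma none of the 20 reached an adjusted p of 0.05 (the smallest was 0.142), against 0.200% of all 22518 probe sets tested. At an unadjusted p under 0.05 there were 3 of 20 (15%), against 14.7% of all tested probe sets: Bcar1 1439388_s_at was lower on the arrays labelled induced, and Tln1 1448402_at and Flna 1426677_at were higher there. The groups did not overlap in 4 of 20 (20.0%), against 20.3% of all tested probe sets. Both shares of probe sets were near the background. Counted by gene, with the brightest probe set of each, 2 of 9 (22.2%) were higher on the arrays labelled induced at an unadjusted p under 0.05, against 7.96% of 10775 genes, and 1 (11.1%) was lower there, against 7.99%. By gene the groups did not overlap in 3 of 9 (33.3%), against 22.4% of all genes. The shares by gene were above the background, but they rest on the same 3 probe sets. With 9 genes, 1 gene alone is 11.1%, so these counts are too small to set the members apart. The median difference was -0.02 over the members and -0.01 over all tested probe sets. Member differences were small: their median absolute value was 0.07, against 0.11 over all tested probe sets. Their median residual SD between replicate arrays was 0.10, against 0.13 over all tested probe sets. Neither comparison was matched for signal level.

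**Figure D1:**
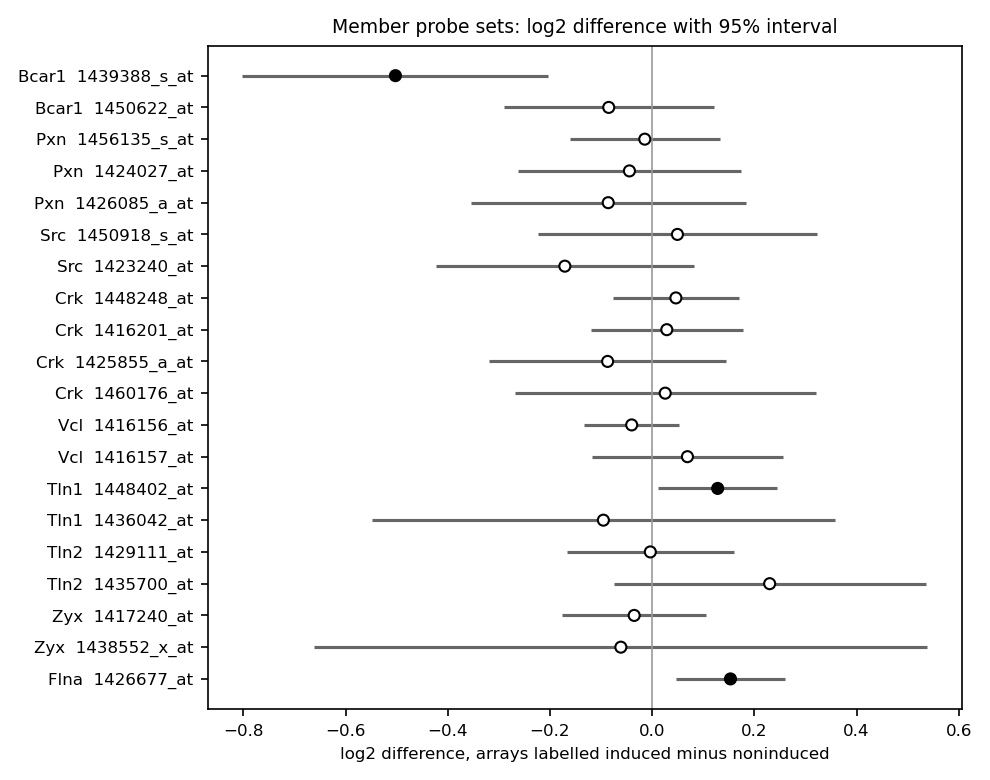
Log2 difference of each of the 20 tested member probe sets, arrays labelled induced minus noninduced (x axis, log2 units of signal + 16). Points are limma estimates from 3 arrays a group, lines are 95% intervals, and filled points have an unadjusted p under 0.05. The Bcar1 probe set 1439388_s_at stands at -0.50, and the Tln1 and Flna probe sets with filled points stand at 0.13 and 0.15.

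Bcar1 encodes p130Cas, the stretch-sensitive docking protein whose tyrosine-phosphorylated repeats bind Crk. Its probe set 1439388_s_at gave 404.6, 408.8 and 273.1 on the arrays labelled induced and 460.5, 591.8 and 490.9 on the noninduced arrays. Every array labelled induced lay below every noninduced array, and induced replicate 3 was the lowest of the 6. The mean was 362 ± 77.2 on the arrays labelled induced and 514 ± 68.7 on the noninduced arrays (SD, n = 3 each). On the log2 scale this was -0.50 (SE 0.137, 95% interval -0.80 to -0.20, limma adjusted p = 0.142). It was -0.32 without induced replicate 3 and -0.40 without noninduced replicate 2, and -0.33 for induced replicate 1, the 1 array labelled induced in the first fluidics run. An "_s_at" name marks a probe set whose probes can also match other transcripts.

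The other Bcar1 probe set, 1450622_at, gave 177.0, 170.7 and 172.0 on the arrays labelled induced and 178.4, 171.3 and 206.0 on the noninduced arrays. Here the groups overlapped, and only noninduced replicate 3 stood apart. The log2 difference was -0.08 (95% interval -0.29 to 0.12, limma adjusted p = 0.722). Within each array, the brighter probe set was set against the dimmer one, and this log2 ratio differed between the groups by -0.42, induced minus noninduced (95% interval -0.79 to -0.05). Over all 9059 such pairs of all genes the limma adjusted p was 0.458, so the disagreement did not pass the test. It was -0.24 without induced replicate 3 and -0.27 without noninduced replicate 2.

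**Figure D2:**
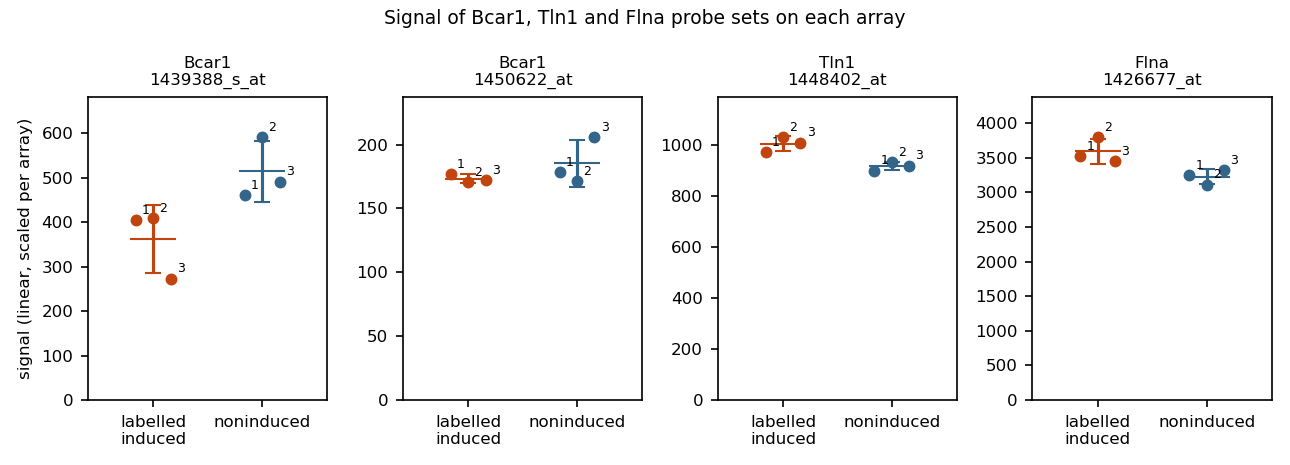
Linear signal, scaled per array (y axes from 0), of both Bcar1 probe sets and of the Tln1 and Flna probe sets with an unadjusted p under 0.05. Points are arrays numbered by replicate, bars are the mean ± SD of 3 arrays. The first Bcar1, the Tln1 and the Flna probe sets have no overlap between groups, while the second Bcar1 probe set overlaps.

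The RefSeq table (GRCm38.p6) listed 2 transcription starts for Bcar1, and both promoters are shown. Each holds 250 bases before the start and 50 after it, 5′ to 3′ on the gene's strand. Capitals mark GGGCGG, the GC box, on either strand. The first lies at chr8:111743800-111744099 and the second at chr8:111732087-111732386, both on the minus strand.
Bcar1 upstream start: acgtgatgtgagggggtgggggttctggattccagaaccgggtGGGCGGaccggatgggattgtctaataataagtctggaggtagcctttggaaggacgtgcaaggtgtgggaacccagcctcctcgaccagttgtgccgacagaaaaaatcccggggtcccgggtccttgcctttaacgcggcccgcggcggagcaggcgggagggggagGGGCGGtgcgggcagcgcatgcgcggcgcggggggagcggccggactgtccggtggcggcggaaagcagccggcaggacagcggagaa
Bcar1 downstream start: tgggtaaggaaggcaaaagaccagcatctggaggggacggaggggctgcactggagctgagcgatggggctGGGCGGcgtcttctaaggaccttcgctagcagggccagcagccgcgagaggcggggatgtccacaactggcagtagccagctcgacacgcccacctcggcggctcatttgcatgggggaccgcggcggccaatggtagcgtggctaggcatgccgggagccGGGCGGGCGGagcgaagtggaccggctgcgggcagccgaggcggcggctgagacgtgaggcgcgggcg
The upstream promoter held 2 GC boxes and the downstream one 3, of which 2 overlap, and 35.7% of all 32851 promoters in the table held at least 1. Where the probes lie on the Bcar1 transcripts was not available, and use of the 2 starts was not measured.

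The genes whose signal followed Bcar1 1439388_s_at most closely over the 6 arrays were Slx4, Gspt1, Ccdc186, Fkbp5 and Skp2, in that order, with a Pearson r from 0.996 for Slx4 to 0.987 for Skp2. The 6 arrays share their groups and runs, and 71 of 19832 probe sets of other genes had an r above 0.95. None of the 5 passed the adjusted test, and their log2 differences were -0.37, -0.28, -0.27, -0.24 and -0.16. They describe likeness on these arrays and are given without a p.

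Filamin A crosslinks cortical actin and competes with talin for integrin beta tails. Flna 1426677_at, its single probe set, gave 3523, 3804 and 3453 on the arrays labelled induced and 3251, 3114 and 3319 on the noninduced arrays. All arrays labelled induced lay above all noninduced arrays, with induced replicate 2 the highest. The mean was 3593 ± 186 on the arrays labelled induced and 3228 ± 104 on the noninduced arrays (SD, n = 3 each), 11.3% apart. The log2 difference was 0.15 (SE 0.049, 95% interval 0.05 to 0.26, limma adjusted p = 0.194). It was 0.11 without induced replicate 2 and 0.13 within the first fluidics run.

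Vinculin and filamin A are both actin-linked proteins. The promoter window listed for Flna is shown beside that of Vcl, a known target of serum response factor (SRF). SRF binds the CArG box, and TEAD factors, partners of YAP, bind GGAATG. Capitals mark CArG boxes, GGAATG and GGGCGG on either strand, and no 2 different motifs overlapped. The Flna window lies at chrX:74246485-74246784 on the minus strand and the Vcl window at chr14:20929148-20929447 on the plus strand (RefSeq, GRCm38.p6). The Flna gene spans chrX:74223461-74249854, so its window lies inside the gene. Sequence at the upstream end of Flna was not examined.
Flna: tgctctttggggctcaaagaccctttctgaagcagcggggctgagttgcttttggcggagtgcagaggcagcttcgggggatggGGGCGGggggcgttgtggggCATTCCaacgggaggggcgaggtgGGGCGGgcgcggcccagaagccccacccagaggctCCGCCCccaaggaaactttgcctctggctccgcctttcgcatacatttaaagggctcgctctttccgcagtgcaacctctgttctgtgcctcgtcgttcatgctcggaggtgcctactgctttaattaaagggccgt
Vcl: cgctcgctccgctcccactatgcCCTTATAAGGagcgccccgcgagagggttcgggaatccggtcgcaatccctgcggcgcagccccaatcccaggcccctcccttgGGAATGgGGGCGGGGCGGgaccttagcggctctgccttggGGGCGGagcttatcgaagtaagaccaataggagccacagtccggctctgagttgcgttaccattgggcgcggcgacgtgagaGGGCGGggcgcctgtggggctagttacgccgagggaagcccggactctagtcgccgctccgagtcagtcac
The Flna window held 1 GGAATG, read on the opposite strand as CATTCC, and 3 GC boxes. The Vcl window held 1 CArG box, 1 GGAATG and 4 GC boxes. Of all promoters in the table, 1.63% held a CArG box and 14.7% a GGAATG. Promoters were listed for 7 of the members (8 windows), and the CArG box was found in 1 of the 8. A match is a stretch of letters and not a measured binding site.

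Talin 1 is the talin found in nearly all cell types. Its brightest probe set, Tln1 1448402_at, gave 973.2, 1032 and 1009 on the arrays labelled induced and 900.1, 933.8 and 919.1 on the noninduced arrays. The groups did not overlap, and the replicates lay close together, at 1005 ± 29.7 on the arrays labelled induced and 917.7 ± 16.9 on the noninduced arrays (SD, n = 3 each). The difference on the log2 scale was 0.13 (SE 0.053, 95% interval 0.01 to 0.24, limma adjusted p = 0.295), and it was 0.08 within the first fluidics run. Tln1 1436042_at, a dim probe set, gave 73.71, 47.39 and 34.47 on the arrays labelled induced and 58.36, 61.96 and 44.39 on the noninduced arrays. Its groups overlapped widely and its sign was the opposite one, at -0.10 with a 95% interval of -0.55 to 0.36. The third, 1457782_at, lay just below the filter with a mean signal of 22.85, and gave 26.3 ± 6.64 on the arrays labelled induced and 19.4 ± 3.94 on the noninduced arrays.

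Talin 2 is the form that comes to predominate in differentiated striated muscle. Its brightest probe set, Tln2 1429111_at, gave 376.6, 441.9 and 430.7 on the arrays labelled induced and 410.2, 421.8 and 417.6 on the noninduced arrays. The noninduced arrays fell inside the range of the arrays labelled induced. Its log2 difference was 0.00 with a 95% interval of -0.17 to 0.16. Tln2 1435700_at gave 85.38, 112.5 and 124.3 on the arrays labelled induced and 79.72, 97.88 and 87.91 on the noninduced arrays. Induced replicates 2 and 3, both of the second fluidics run, were the highest of the 6, and induced replicate 1 lay within the noninduced range. The log2 difference was 0.23 (95% interval -0.08 to 0.54, limma adjusted p = 0.475) and -0.04 within the first run. Tln2 1429112_at, below the filter, gave 22.88, 17.18 and 3.60 on the arrays labelled induced and 25.80, 16.91 and 5.70 on the noninduced arrays.

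Vinculin, which binds stretched talin and actin, gave like signals on the 6 arrays. Vcl 1416156_at gave 4122, 4252 and 3987 on the arrays labelled induced and 4133, 4342 and 4233 on the noninduced arrays. The groups overlapped, and the log2 difference was -0.04 with a 95% interval of -0.13 to 0.05, the narrowest among the members. Vcl 1416157_at gave 690.1, 836.0 and 804.0 on the arrays labelled induced and 662.6, 747.4 and 808.8 on the noninduced arrays, with a log2 difference of 0.07 (95% interval -0.12 to 0.26). The probe sets differed in sign, and neither interval left out 0.

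Src, the kinase that pairs with FAK, was dim on both of its probe sets. Src 1423240_at gave 88.45, 91.39 and 83.36 on the arrays labelled induced and 111.9, 96.28 and 94.69 on the noninduced arrays. The groups did not overlap, but the gap between them was small, and noninduced replicate 1 was the highest. The log2 difference was -0.17 (95% interval -0.42 to 0.08, limma adjusted p = 0.524). Src 1450918_s_at gave 127.7, 108.0 and 111.1 on the arrays labelled induced and 97.98, 105.3 and 131.8 on the noninduced arrays, and there the groups overlapped, with a log2 difference of 0.05 (95% interval -0.22 to 0.32).

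Paxillin, the scaffold that FAK and Src phosphorylate, had 3 probe sets, and all overlapped between the groups. The brightest, Pxn 1456135_s_at, gave 628.9, 566.1 and 594.4 on the arrays labelled induced and 622.5, 620.7 and 564.8 on the noninduced arrays (log2 difference -0.01, 95% interval -0.16 to 0.13). Pxn 1424027_at was at -0.04 and Pxn 1426085_a_at at -0.09, each with an interval across 0. All 3 were negative, and all 3 were positive when each array was centred on its median.

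Crk, the adaptor that reads phosphorylated p130Cas and paxillin, had the most probe sets of any member, 5. Crk 1448248_at gave 1516, 1554 and 1378 on the arrays labelled induced and 1410, 1414 and 1476 on the noninduced arrays, with a log2 difference of 0.05 (95% interval -0.08 to 0.17). Crk 1416201_at was at 0.03, Crk 1460176_at at 0.03 and Crk 1425855_a_at at -0.09, and the groups overlapped in each. The fifth, Crk 1436835_at, lay below the filter: it gave 25.22, 30.65 and 17.49 on the arrays labelled induced and 18.96, 8.04 and 13.44 on the noninduced arrays, overlapping by 1 array, and was not tested.

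Zyxin, a LIM protein of tensed actin fibres, gave 788.3, 846.3 and 760.1 on the arrays labelled induced and 766.0, 844.2 and 844.8 on the noninduced arrays with Zyx 1417240_at. The groups overlapped, and the log2 difference was -0.04 (95% interval -0.18 to 0.11). Zyx 1438552_x_at, whose "_x_at" name marks probes that may cross-hybridise, ranged from 50.18 to 76.60 on the arrays labelled induced and from 29.56 to 91.16 on the noninduced arrays. Its interval, -0.66 to 0.54, was the widest among the members.

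Of the 8 member genes with at least 2 tested probe sets, 3 (Bcar1, Pxn and Zyx) had probe sets of 1 sign, 37.5%, against 44.9% of the 5239 such genes on the array. Src, Crk, Vcl, Tln1 and Tln2 had probe sets on both sides of 0. Among the 11 pairs of a gene's brightest probe set with another, none differed past the adjusted test in limma, against 0.00% of all 9059 pairs, and 1, that of Bcar1, did at an unadjusted p under 0.05, against 9.68% of all pairs. Signals of different probe sets depend on the probes and were not ranked against each other.

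The proteins that act with these members were covered by a list of 55 genes, of which 51 had a probe set and 45 were tested, each by its brightest probe set. None passed the adjusted test in limma (smallest adjusted p 0.113), against 0.306% of 10775 genes. At an unadjusted p under 0.05, 4 (8.89%) were higher on the arrays labelled induced, against 7.96% of all genes, and 3 (6.67%) were lower there, against 7.99%. The groups did not overlap in 10 of 45 (22.2%), against 22.4%. The list median was 0.02 and that of all genes -0.01.

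**Figure D3:**
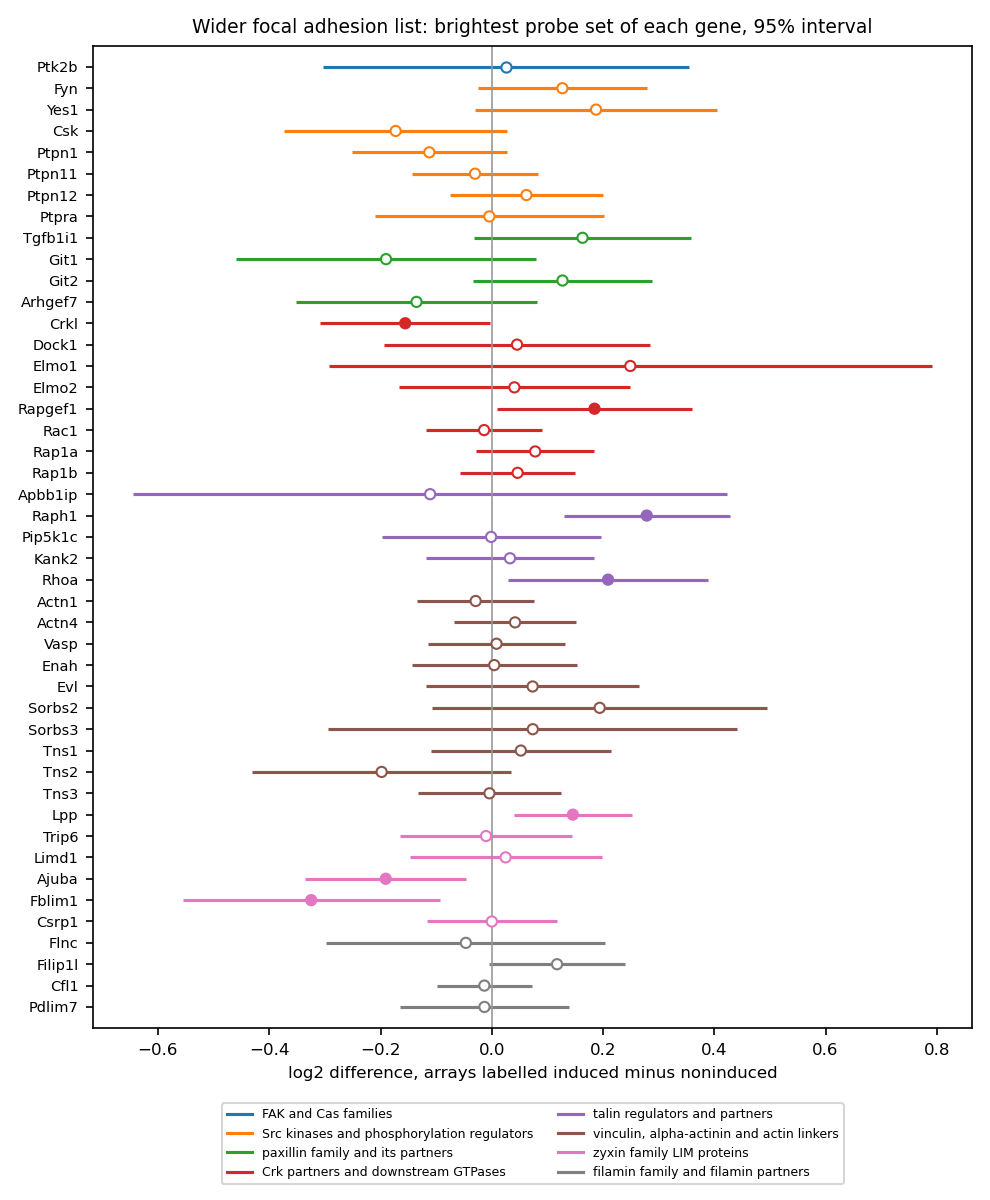
Log2 difference, arrays labelled induced minus noninduced (x axis), for the 45 tested genes of the wider focal adhesion list, coloured by functional group. Points are limma estimates for the brightest probe set of each gene (3 arrays a group), lines 95% intervals, filled points an unadjusted p under 0.05. Raph1 at 0.28 and Fblim1 at -0.32 lie farthest from 0 among the filled points.

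Among talin partners, Raph1, which encodes lamellipodin, a protein that binds Ras-family GTPases and talin, had the smallest p of the list. It gave 566.4, 545.4 and 510.2 on the arrays labelled induced and 443.7, 461.8 and 422.9 on the noninduced arrays, without overlap. The log2 difference was 0.28 (95% interval 0.13 to 0.43, limma adjusted p = 0.113), and 0.37 with an adjusted p of 0.0391 when each array was centred on its median. That centring also moved the median difference of all tested probe sets from -0.01 to 0.08, with 294 adjusted calls higher and 12 lower. The other tested probe sets of Raph1 were at 0.13 and -0.38, neither past the test. Rhoa, the GTPase of stress fibres, was at 0.21, with induced replicate 3 inside the noninduced range, and its probe set 1437628_s_at was at 0.05. Of 5 genes tested in the list's group of talin regulators and partners, 2 were higher at an unadjusted p under 0.05 (7.96% of all genes were). None was lower (7.99% of all genes were). Rhoa and Raph1 are those 2.

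Among the LIM proteins related to zyxin, 3 of 6 had an unadjusted p under 0.05, of which Lpp was higher and the other two lower, against 7.96% of all genes higher and 7.99% lower. Lpp, lipoma preferred partner, gave 3230, 3206 and 3386 on the arrays labelled induced and 2803, 3091 and 2984 on the noninduced arrays (log2 difference 0.15, 95% interval 0.04 to 0.25, limma adjusted p = 0.209). Its 8 tested probe sets ran from -0.27 to 0.38, and the lowest adjusted p among them was 0.0935, for 1454899_at at 0.25. The other brighter ones, 1440167_s_at, 1455314_at and 1438271_at, were at 0.13, 0.15 and 0.38. Those at or below 0 were the dimmest: 1437235_x_at at -0.18, 1425673_at at -0.0003 and 1446698_at at -0.27. Fblim1, migfilin, which binds filamin, was at -0.32 with 1449141_at and at 0.21 with 1418569_at, so its probe sets pointed in opposite directions. Ajuba, named after its value was seen, was at -0.19.

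By brightest probe set, the other groups held 2 genes at an unadjusted p under 0.05 in limma, Rapgef1 and Crkl. None was at an adjusted p under 0.05. Rapgef1 and Crkl were among the 8 Crk partners, 1 higher and 1 lower (12.5% each), against 7.96% and 7.99% of all genes. Dimmer probe sets of Ptpn1, Elmo2 (-0.47) and Pdlim7 (-0.29) also had an unadjusted p under 0.05 in limma. All were lower on the arrays labelled induced, and these genes were named after their values were seen. Among Src kinases and the enzymes that regulate them, none of 7 reached either threshold by its brightest probe set. Csk, the kinase that inhibits Src, was at -0.17 and the phosphatase Ptpn12, which acts on p130Cas, at 0.06. The groups did not overlap in 4 of these 7 (57.1%), against 22.4% of all genes. Csk and Ptpn1 were lower on the arrays labelled induced, and Fyn and Yes1 were higher there. Of these, Ptpn1, Fyn and Yes1 were named after their values were seen. The other tested probe sets of Fyn (1448765_at at 0.03) and Yes1 (1418470_at at 0.16) overlapped between the groups, and that of Ptpn1 (1438670_at at -0.27) did not. Of these 8 Crk partners, Rapgef1, a guanine nucleotide exchange factor for Rap1, was at 0.18, Crkl, named after its value was seen, at -0.16, and the GTPase Rac1 at -0.01. The other tested probe set of Rapgef1, 1421146_at, had the opposite sign, at -0.15. Of 4 tested paxillin relatives and partners, the paxillin homologue Hic-5 (Tgfb1i1) was at 0.16. Of 10 actin linkers, alpha-actinin 1 (Actn1) was at -0.03 and tensin 2 (Tns2) at -0.20. Of 4 genes tested in the list's filamin group, Filip1l was at 0.12 and cofilin (Cfl1) at -0.01. Ptk2b, the FAK relative Pyk2, was the 1 tested gene of the FAK and Cas families besides the members, at 0.02, with an interval of -0.30 to 0.35.

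The 16 processing alternatives covered the normalization, the filter, the pseudocount, the model and the arrays used. Bcar1 1439388_s_at had an unadjusted p under 0.05 in limma in 15 of the 16, Flna 1426677_at in 13 and Tln1 1448402_at in 9. These alternatives reuse the same 6 arrays and are not independent of each other. For each of the 3, those without such a p included fluidics run as a block, which rests on induced replicate 1 alone. The log2 differences there were -0.33 for Bcar1, 0.13 for Flna and 0.08 for Tln1. No adjusted p of these 3 fell below 0.05, and all 3 kept their sign throughout.

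**Figure D4:**
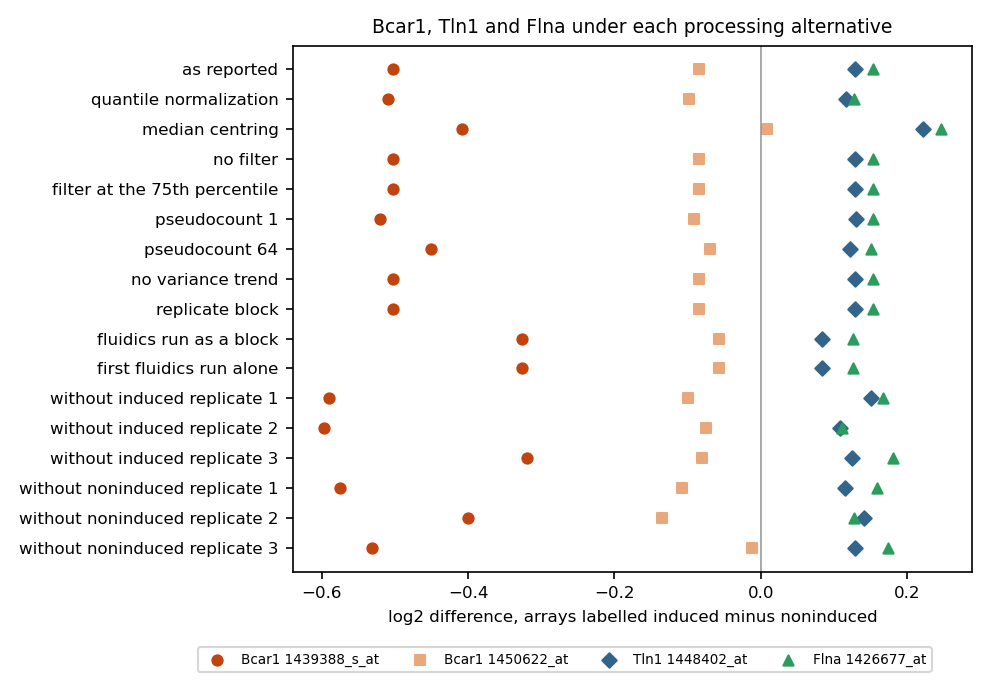
Log2 difference, arrays labelled induced minus noninduced (x axis), of both Bcar1 probe sets and of the Tln1 and Flna probe sets with an unadjusted p under 0.05, under the reported processing and 16 alternatives (y axis). Bcar1 1439388_s_at runs from -0.60 to -0.32, Tln1 from 0.08 to 0.22 and Flna from 0.11 to 0.25, and none of these 3 crosses 0.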

How the data were processed

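Total RNA of 3 induced and 3 noninduced samples was hybridised to 1 Affymetrix Mouse430_2 array each. For every probe set the authors deposited a signal intensity on a linear scale; the submitters' processing notes name GCOS 1.1.1 as the software. Detection calls were not used here. Each array was already scaled: the mean after trimming 2% at each end was 150.0 on all 6, which hides any shift shared by most transcripts. The instrument records (unit other) gave hybridisation times in the file headers. A new fluidics run was taken to start where these times were over 30 minutes apart, so the runs are inferred.

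The 64 control probe sets were set aside. Gene names came from the platform annotation: of 45037 probe sets 34945 had 1 gene, 932 several and 9160 none listed. Values were taken to log2(signal + 16), which understates differences where the signal is low. The 22518 whose mean signal exceeded the median of all were tested in R 4.3.3 by limma 3.58.1 (lmFit, then eBayes with its trend option; Benjamini-Hochberg adjustment over all tested, threshold 0.05), and so were within-array differences between a gene's brightest tested probe set and its others, where the trend followed the signal of the dimmer one. Promoters came from a RefSeq table of GRCm38.p6. The 6 arrays limit the precision. The members, lists and tests were chosen with earlier results of these data known.

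The genes named are the members, Itga7, the gene with the smallest p and the one with the highest signal in each group of the wider list, and the 5 genes most correlated with the member probe set of smallest p. Ajuba, Crkl, Fyn, Yes1, Ptpn1, Elmo2, Pdlim7 and the markers with values were named after their values were seen. Alternatives were quantile normalization, median centring, other filters and pseudocounts, no variance trend, the replicate number or fluidics run as a block, the first run alone, and leaving out each array.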

Additional observations from a re-analysis of the deposited data

How the results depend on the processing

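No member probe set passed an adjusted p of 0.05 in limma under any of the 16 alternatives, and no pair of a member's probe sets did. The count of members at an unadjusted p under 0.05, 3 as reported, was 1 without a variance trend, 0 when fluidics run was a block and 1 when the first run was analysed by itself. Bcar1 1439388_s_at, Tln1 1448402_at, Flna 1426677_at, Src 1423240_at and Crk 1448248_at kept their sign under every alternative that tested them, and the other 15 tested member probe sets did not. Centring each array on its median moved the median difference of all tested probe sets to 0.08, from -0.01 as reported, and gave positive values for Bcar1 1450622_at (0.0084), Pxn 1456135_s_at (0.0789), 1424027_at (0.0489) and 1426085_a_at (0.0074), Crk 1425855_a_at (0.0062), Vcl 1416156_at (0.0533), Tln2 1429111_at (0.0898), Zyx 1417240_at (0.0582) and Zyx 1438552_x_at (0.0321). The block on run and the first run by itself both gave 0.0613, 0.0357 and 0.0627 for Pxn 1456135_s_at, 1424027_at and 1426085_a_at, -0.0688 for Crk 1416201_at, -0.0931 for Vcl 1416157_at, 0.35 for Tln1 1436042_at and -0.0402 for Tln2 1435700_at; these rest on induced replicate 1 alone and assume that it varies like the noninduced arrays. Leaving out 1 array turned the sign of 9 probe sets, with ranges of -0.0592 to 0.0216 for Pxn 1456135_s_at, -0.100 to 0.0140 for Pxn 1424027_at, -0.0279 to 0.159 for Src 1450918_s_at, -0.0266 to 0.0774 for Crk 1416201_at, -0.0443 to 0.0893 for Crk 1460176_at, -0.0061 to 0.150 for Vcl 1416157_at, -0.32 to 0.10 for Tln1 1436042_at, -0.0465 to 0.0645 for Tln2 1429111_at and -0.44 to 0.17 for Zyx 1438552_x_at. Every value with a turned sign had an adjusted p of 0.63 or more in limma, and the cause was not tested. Over all probe sets the 45 adjusted calls became 306 with median centring (294 higher and 12 lower, against 27 and 18 as reported), 1 with no filter, 102 with the filter at the 75th percentile, 0 without a variance trend, 5 with the replicate block, 0 with the block on run, 0 in the first run by itself, and 0 to 49 without 1 array (0 without induced replicate 1, 11 without induced replicate 2, 1 without noninduced replicate 2, 9 without noninduced replicate 3). Where a count was 0, unadjusted p under 0.05 held for 2817 probe sets without a variance trend, 1923 with the block on run, 1969 in the first run and 2604 without induced replicate 1. The wider list had 1 adjusted call, Raph1, with median centring and 0 as reported. Deviations of same-numbered arrays from their group means correlated at 0.01, -0.06 and -0.01. With 3 arrays a group, these correlations cannot decide whether the replicate numbers pair the samples. With the replicate block the count of adjusted calls among members was 0. Signal near background limits the 3 probe sets below the filter.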
